A study of Homo sapiens with 27 samples.

Results

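Untreated SW480 cells were compared with untreated DLD-1 cells to describe how these human colorectal cancer (CRC) cell lines differed in mRNA expression before exposure to any drug. The comparison used the libraries labelled WT of each line, 3 of SW480 and 3 of DLD-1, which are 6 of the 27 libraries of the series. These libraries carry the genotype label negative control, and no drug or transgene was given to them. The other libraries came from HCT116 and from cells of each line made resistant to 5-fluorouracil (5-FU res) or oxaliplatin (OX res), again with 3 libraries per group. All lines were kept in the same low-glucose medium with serum. Each line stands for 1 tumour, so line and tumour cannot be told apart. DLD-1 library names belong to another number range than those of SW480 and HCT116, and what this number stands for is not stated, so that line and any handling shared by a number range cannot be told apart. Nothing in the labels or methods tells if libraries of 1 group were grown as separate cultures, so the replicate spread behind each p-value may be purely technical.

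SW480 and DLD-1 are both adherent lines derived from human colorectal adenocarcinomas. Epithelial cells of the colon are held together by E-cadherin and desmosomes, follow transcription factors such as CDX2 and HNF4A, and mature into absorptive enterocytes or mucus-secreting goblet cells. Cancer cells can lose part of this programme and take on mesenchymal genes such as vimentin, a shift called epithelial-mesenchymal transition. SW480 is commonly described as the less differentiated and more mesenchymal of these lines, and DLD-1 as a line with defective mismatch repair.

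Expression is given as TPM, which is FPKM scaled so that every library has the same sum. Across genes, the correlation of log2(TPM + 1) was 0.991 to 0.993 between SW480 libraries, 0.992 to 0.993 between DLD-1 libraries and 0.767 to 0.785 between a SW480 and a DLD-1 library. Read numbers were not given. As a rough estimate, the smallest steps of the FPKM values put the depth of the 6 libraries within 0.853 to 1.01 of that of SW480 library 1. In the libraries compared with it, 32.4% to 55.4% of the low genes used showed the most common step. Median-of-ratios size factors of the deposited FPKM were 0.988 to 1.03. Whether scaling between libraries before deposit entered these steps was not tested. Ribosomal protein genes held 21.3% to 22.6% of the TPM in SW480 and 19.6% to 20.3% in DLD-1. Markers of colorectal epithelium summed to 8771 to 9198 TPM in SW480 and 9804 to 10140 TPM in DLD-1, with 7 and 9 of 11 markers at 1 TPM or more in every library. The keratins KRT8 and KRT18 held most of these sums in both lines. CDX1 was listed at 0 in all SW480 libraries, where KRT20, CDH17 and LGALS4 were below 1 TPM, and DLD-1 had CDX1 and VIL1 below 1 TPM. Fibroblast, leukocyte and endothelial marker lists each summed to at most 15.2 TPM in any of the 6 libraries. Of the 10 leukocyte markers, 5 were listed at 0 in all SW480 libraries and 6 in all DLD-1 libraries, and DCN, LUM and PDGFRA of the fibroblast list were at 0 in both lines. In bulk RNA, fewer cells with a transcript and less transcript per cell cannot be told apart.

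Among 13739 genes tested with limma, 1683 were higher in SW480 (12.2%) and 3913 were lower (28.5%), or 40.7% in all, where a call needed a log2 fold change of more than 1 in size and an adjusted p under 0.05. Fold changes were taken on the log2(TPM + 1) scale, SW480 against DLD-1, and understate the change of genes with low values. With no limit on the fold, 83.7% of genes passed the adjusted p, and in 85.7% the 3 SW480 values did not overlap with the 3 DLD-1 values. Over all genes the log2 fold change had a median of -0.42, and the FPKM summed to 680346 to 804635 in SW480 libraries and to 499557 to 515400 in DLD-1 libraries. After median-of-ratios scaling, which sets the typical gene equal between libraries, the median was 0.04, with 2615 genes higher (19.1%) and 2420 lower (17.6%) in SW480, 36.7% in all. The share of calls that were higher in SW480 was 30.1% with TPM and 51.9% with median-of-ratios scaling, and 4103 genes were called in the same direction by both. Longer transcripts were lower in SW480 relative to DLD-1. In 4 groups of genes of equal number ordered by transcript length, the median log2 fold change was 0.05, -0.27, -0.57 and -0.92 from the shortest to the longest, and 0.50 and -0.49 in the shortest and longest group with median-of-ratios scaling. What part the library name range has in these differences was not tested. Counts under median-of-ratios scaling stand beside the TPM counts of the gene lists, which are to be read against 12.2% higher and 28.5% lower over all genes with TPM, and 19.1% and 17.6% with median-of-ratios scaling.

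The genes with the largest differences, 11 higher and 12 lower in SW480, spanned log2 fold changes of 7.25 to 9.59 in size, and most were near 0 in one of the lines. KRT5, a basal keratin, had 2298, 2147 and 2327 TPM in SW480 against 4.56, 1.44 and 0.865 TPM in DLD-1. Its log2 fold change was 9.59 ± 0.34 (SE, adjusted p = 4.1e-08), and DLD-1 library 1 was the highest of its line, while remaining far below every SW480 library. Over the 38 genes with a mean of 100 TPM or more in SW480 and a log2 fold change of 5 or more, this library was the highest of the 3 in 23, and the summed TPM were 118 against 102 and 106.

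KRT23, a further keratin, measured 805, 748 and 800 TPM in SW480 and at most 1.51 TPM in DLD-1. TGM2, the protein-crosslinking tissue transglutaminase, reached 995, 857 and 992 TPM in SW480 and at most 2.18 TPM in DLD-1. SAA1, an acute-phase serum amyloid, had 320, 373 and 323 TPM in SW480 and was listed at 0 in all DLD-1 libraries. The glucose transporter SLC2A3 had a log2 fold change of 8.13 ± 0.16 (SE), the pore-forming protein PRF1 of 7.89 ± 0.09 and the neurotrophin receptor NGFR of 7.88 ± 0.13. S100A4, a calcium-binding protein linked to cell motility, was the only one of the 11 with more than 10 TPM in DLD-1, at 2761, 3059 and 2709 TPM in SW480 against 15.2, 16.2 and 16.9 TPM. MIA, a small secreted protein first described in melanoma, completed the group with VIM and MSN, at 183, 206 and 193 TPM against at most 0.495 TPM.

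In the opposite direction, TSPAN8 (chr12:71518865-71835678, GRCh37), a tetraspanin of gut epithelium, measured 682, 701 and 664 TPM in DLD-1 and 0, 0.674 and 0.124 TPM in SW480 (log2 fold change -9.11 ± 0.17 SE, adjusted p = 1.8e-09). AGR2, a protein disulfide isomerase of mucus-secreting cells, had 504, 489 and 507 TPM in DLD-1 and at most 0.292 TPM in SW480. REG4, a secreted lectin, reached 386, 358 and 399 TPM in DLD-1 and at most 0.304 TPM in SW480. The chloride channel CFTR measured 226, 237 and 226 TPM against at most 0.0730 TPM, and the gut cadherin CDH17 189, 199 and 192 TPM against at most 0.0310 TPM. No SW480 library exceeded 1.26 TPM for any of these 12 genes, which also included S100A14, CLDN2, PARM1, PAPSS2, S100P, TFF1 and IL33. S100P reached 1.26 TPM and S100A14 1.22 TPM in SW480 library 1, and their DLD-1 values were 299 to 329 TPM and 297 to 309 TPM.

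**Figure D1:**
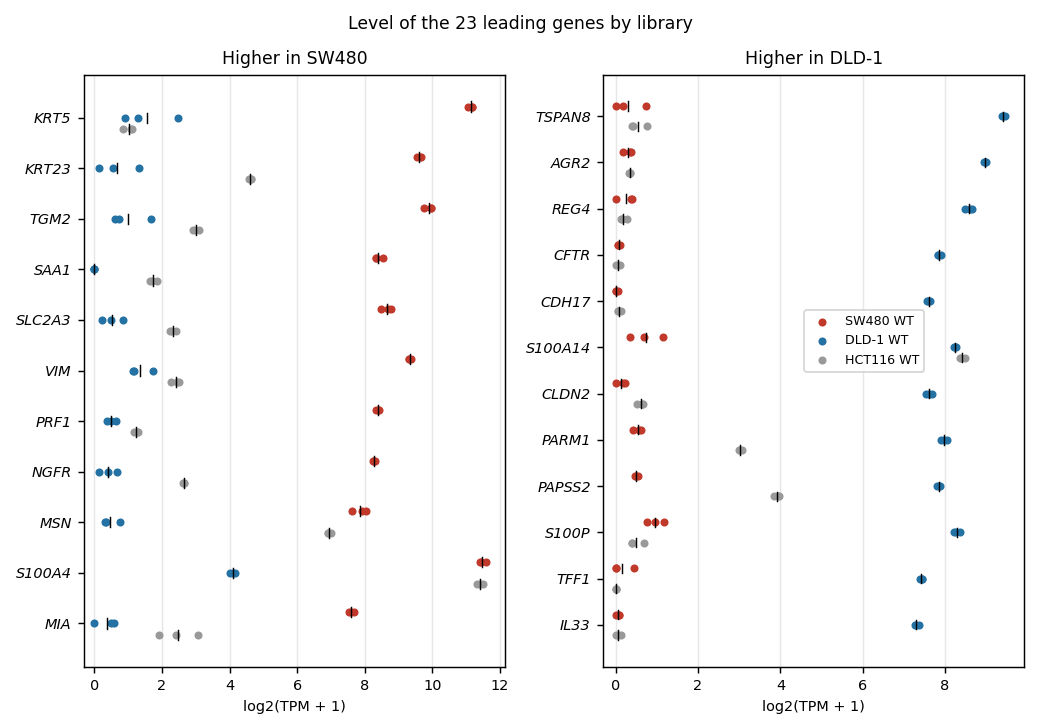
Level of the 11 leading genes higher and the 12 leading genes lower in SW480, as log2(TPM + 1) on the x axis, 1 point per WT library and a black tick at the mean of 3 (SW480 red, DLD-1 blue, HCT116 grey). The SW480 and DLD-1 points are apart for all 23 genes, and HCT116 lay near the SW480 level for S100A4 and CFTR and near the DLD-1 level for KRT5 and S100A14.

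Most genes of epithelial adhesion and polarity were lower in SW480. Of 29 members tested, 22 were lower in SW480 and 0 were higher (21 and 1 with median-of-ratios scaling), and the median log2 fold change was -2.04 against -0.42 over all genes. CDH1 (chr16:68771195-68869440, GRCh37), which encodes E-cadherin, measured 19.4, 14.2 and 17.1 TPM in SW480 and 417, 440 and 409 TPM in DLD-1 (log2 fold change -4.58 ± 0.10 SE, adjusted p = 3.7e-09). Both lines thus had the transcript, and all SW480 values were below all DLD-1 values. The small GTPase RAB25, which acts in apical recycling, was at 0.119, 0.118 and 0.130 TPM in SW480 and 159, 169 and 177 TPM in DLD-1. The membrane-anchored protease PRSS8 had at most 0.0672 TPM in SW480 and 66.6 to 74.5 TPM in DLD-1. GRHL2, a transcription factor that maintains epithelial genes, had at most 0.0867 TPM against 41.9 to 43.3 TPM. AP1M2, the epithelial subunit of a clathrin adaptor, measured 6.76, 6.50 and 6.69 TPM in SW480 and 227, 223 and 228 TPM in DLD-1.

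EPCAM, an epithelial adhesion molecule that marks both lines, had 343, 301 and 326 TPM in SW480 and 790, 789 and 776 TPM in DLD-1. Its log2 fold change was -1.28 with TPM and -0.80 with median-of-ratios scaling, which no longer passed the fold threshold. KRT8, the main simple-epithelial keratin with KRT18, had 4027 to 4279 TPM in SW480 and 4564 to 4798 TPM in DLD-1. KRT18 had 3450 to 3637 TPM and 2960 to 3233 TPM, so both were among the abundant transcripts of each line. Among 14 listed claudins and other tight junction genes tested, 6 were lower in SW480 and 0 higher (5 and 0 with median-of-ratios scaling). CLDN11, a claudin outside this list, was called higher in SW480 under both scalings. It had 31.5, 29.9 and 34.1 TPM in SW480 against at most 0.151 TPM in DLD-1. CLDN2, a pore-forming claudin, was at most 0.159 TPM in SW480 and 184, 204 and 194 TPM in DLD-1. TJP3, CGN and F11R, which encode a scaffold, cingulin and a junctional adhesion molecule, had log2 fold changes of -2.67, -2.38 and -2.15.

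The promoters of members that were lower together were searched for the E-box CAGGTG on both strands (CACCTG on the other), a sequence known to be bound by repressors of the SNAI and ZEB families. The windows came from RefSeq, GRCh38.p14, from 250 bases before to 50 bases after the start, with the first listed window taken for each gene, and the search was chosen after expression values and a first count were seen. Of the 22 epithelial genes lower in SW480, 9 had a window and 6 of these held the E-box (AP1M2, CRB3, DSC2, DSG2, ELF3 and RAB25). It was held by 5 of 12 windows of the intestinal genes lower in SW480 and by 2 of 7 of the mucin and goblet cell genes. These counts stand against 20.6% of 27305 genes in the table and 19.0% of 10688 genes tested that had a window. Windows of 3 of the 6, and of AGR2 as 1 of the leading genes, are given with each E-box in capitals, read 5′ to 3′ on the strand of the gene.
RAB25 (chr1:156060910-156061209, plus strand): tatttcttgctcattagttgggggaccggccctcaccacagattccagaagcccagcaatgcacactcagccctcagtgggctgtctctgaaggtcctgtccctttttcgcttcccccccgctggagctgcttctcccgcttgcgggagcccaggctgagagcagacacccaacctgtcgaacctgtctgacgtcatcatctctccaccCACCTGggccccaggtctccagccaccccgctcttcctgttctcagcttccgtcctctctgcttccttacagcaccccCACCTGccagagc
AP1M2 (chr19:10587263-10587562, minus strand): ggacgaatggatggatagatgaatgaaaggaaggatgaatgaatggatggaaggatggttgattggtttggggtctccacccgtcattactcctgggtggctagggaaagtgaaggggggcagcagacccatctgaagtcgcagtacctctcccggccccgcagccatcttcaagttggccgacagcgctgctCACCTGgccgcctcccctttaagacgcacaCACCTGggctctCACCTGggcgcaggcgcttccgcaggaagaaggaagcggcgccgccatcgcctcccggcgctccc
CRB3 (chr19:6464021-6464320, plus strand): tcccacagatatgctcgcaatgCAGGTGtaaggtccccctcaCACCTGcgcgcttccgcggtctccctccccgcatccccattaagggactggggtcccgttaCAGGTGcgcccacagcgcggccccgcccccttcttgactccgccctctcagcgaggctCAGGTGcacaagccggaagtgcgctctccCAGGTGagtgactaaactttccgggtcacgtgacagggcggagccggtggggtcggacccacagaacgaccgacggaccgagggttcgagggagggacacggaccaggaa
AGR2 (chr7:16804950-16805249, minus strand): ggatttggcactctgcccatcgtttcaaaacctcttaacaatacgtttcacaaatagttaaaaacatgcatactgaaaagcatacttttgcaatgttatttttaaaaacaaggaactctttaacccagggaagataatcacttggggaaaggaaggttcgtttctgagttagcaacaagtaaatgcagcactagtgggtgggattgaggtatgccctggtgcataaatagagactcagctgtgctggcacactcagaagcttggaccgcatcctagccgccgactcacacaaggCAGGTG
RAB25 held 2 E-boxes, AP1M2 3, CRB3 5 and AGR2 1. Matches are a description of the letters in these windows and no measure of binding.

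Genes on in one line and off in the other, with 10 TPM or more in every library of one and under 0.5 TPM in every library of the other, numbered 132 for SW480 and 124 for DLD-1. The E-box occurred in 32.2% of the 87 windows of genes on in DLD-1 and in 19.8% of the 96 windows of genes on in SW480. The FOXA motif TGTTTAC was found in 4.6% and 2.08%, against 3.41% of all genes in the table and 2.29% of the tested genes. For the CDX motif TTTATNG the shares were 13.8% and 11.5%, against 10.1% and 5.89%. The median number of CpG dinucleotides per window was 12 for genes on in DLD-1 and 17 for genes on in SW480, against 14 over all promoters of the table and 26 for the tested genes that had a window.

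Among mesenchymal genes tested, more were higher in SW480 than lower. Of 32 genes listed, the 16 that passed the filter on low values were tested, with 7 higher and 2 lower in SW480 (10 and 2 of 17 with median-of-ratios scaling). Members near 0 in DLD-1, such as MSN and AXL, entered through SW480 alone, which weighs these counts toward higher calls. VIM (chr10:17270240-17279592, GRCh37), the intermediate filament vimentin, had 656, 637 and 631 TPM in SW480 and 2.33, 1.22 and 1.25 TPM in DLD-1 (log2 fold change 7.98 ± 0.15 SE, adjusted p = 1.6e-09). MSN, which links membrane to actin, measured 261, 196 and 241 TPM against at most 0.679 TPM. The receptor tyrosine kinase AXL was at 54.8, 42.0 and 47.6 TPM against 0.436, 0.823 and 0.546 TPM, and COL6A1, a chain of collagen VI, at 24.8 to 27.2 TPM against 1.14 to 1.63 TPM. The repressor ZEB1 had 1.70, 1.27 and 1.21 TPM in SW480 and 0.224, 0.518 and 0.165 TPM in DLD-1. With a log2 fold change of 0.88 it was not called with TPM and was called with median-of-ratios scaling (1.08). SNAI2, a repressor of the SNAI family, was among the 7 members higher in SW480 with TPM. SPARC and COL5A2 were the 2 members lower in SW480.

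In the keratin family, more tested members were higher than lower in SW480, with 8 higher and 3 lower of 16 tested (10 and 3 with median-of-ratios scaling). Members near 0 in DLD-1, such as KRT13 and KRT81, entered here through SW480 alone. Besides KRT5 and KRT23, KRT13, a keratin of stratified mucosa, reached 106, 117 and 119 TPM in SW480 and at most 0.555 TPM in DLD-1. KRT81, a hair keratin that is nearly identical to other members of its family so that its reads are uncertain, had 31.0 to 36.1 TPM against 0.491 to 0.795 TPM. KRT4, KRT7 and KRT20 were the 3 lower members.

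Cell-matrix genes moved in both directions. Of 14 integrins tested, 4 were higher and 7 lower in SW480, and the counts were the same with median-of-ratios scaling. ITGA6, a laminin receptor subunit, had 79.6, 49.8 and 65.2 TPM in SW480 and 368, 379 and 356 TPM in DLD-1. ITGA7 and ITGA1, subunits of laminin and collagen receptors, were higher in SW480 with log2 fold changes of 3.10 and 2.2, and ITGA9 was lower at -3.42. Collagens and laminins had 5 higher and 7 lower of 17 (5 and 6 of 18 with median-of-ratios scaling), led by COL9A3 at 138, 140 and 125 TPM in SW480 against 1.11, 0.590 and 0.598 TPM in DLD-1. COL18A1 was higher with a log2 fold change of 3.63 and COL17A1, a hemidesmosome collagen, lower with -3.64. Of 20 proteases and inhibitors, 6 were higher and 10 lower (7 and 8 of 22 with median-of-ratios scaling). MMP15, KLK10 and TIMP4 were lower with -3.72, -3.51 and -2.78.

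Among members tested, intestinal transcription factors and enterocyte genes showed the highest share of calls of all lists. Of 44 members listed, only the 19 that passed the filter on low values were tested. Of these, 17 were lower in SW480 and 1 was higher, under TPM as well as median-of-ratios scaling, with a median log2 fold change of -2.87 with TPM. Members near 0 in SW480, such as CDH17, GATA6 and CEACAM5, entered through DLD-1 alone, which weighs this share toward lower calls. CDX2, the homeobox factor that sets intestinal identity, was present in both lines, with 45.5, 44.5 and 43.2 TPM in SW480 and 198, 193 and 189 TPM in DLD-1. The difference in log2 was -2.10 ± 0.05 (SE, adjusted p = 6.1e-09). GATA6, a zinc finger factor of gut endoderm, was at most 0.0607 TPM in SW480 and 44.6 to 46.9 TPM in DLD-1. CEACAM5, the carcinoembryonic antigen, measured at most 0.0562 TPM in SW480 and 54.5, 61.6 and 54.2 TPM in DLD-1, with the caution that the CEACAM genes resemble each other in sequence. VIL1, the microvillus protein villin, was the 1 exception, at 6.31, 5.49 and 7.33 TPM in SW480 against 0.167, 0.200 and 0.120 TPM in DLD-1.

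Mucin and goblet cell genes followed the same direction, with 13 lower and 0 higher of 18 tested among 30 listed (12 and 0 with median-of-ratios scaling). Members near 0 in SW480 entered here too through DLD-1 alone. TFF1, a trefoil peptide that protects mucosa, had 167, 173 and 174 TPM in DLD-1 and 0, 0 and 0.366 TPM in SW480. FOXA1, a pioneer factor of gut secretory cells, was at 201, 210 and 198 TPM in DLD-1 and 0.546, 0.541 and 0.854 TPM in SW480. AGR2 and REG4 belong to this list as well. In the S100 and annexin family, by contrast, 7 were higher and 8 lower of 21 (9 and 4 with median-of-ratios scaling), with S100A2 at 565 to 605 TPM in SW480 against 5.75 to 8.72 TPM in DLD-1.

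**Figure D2:**
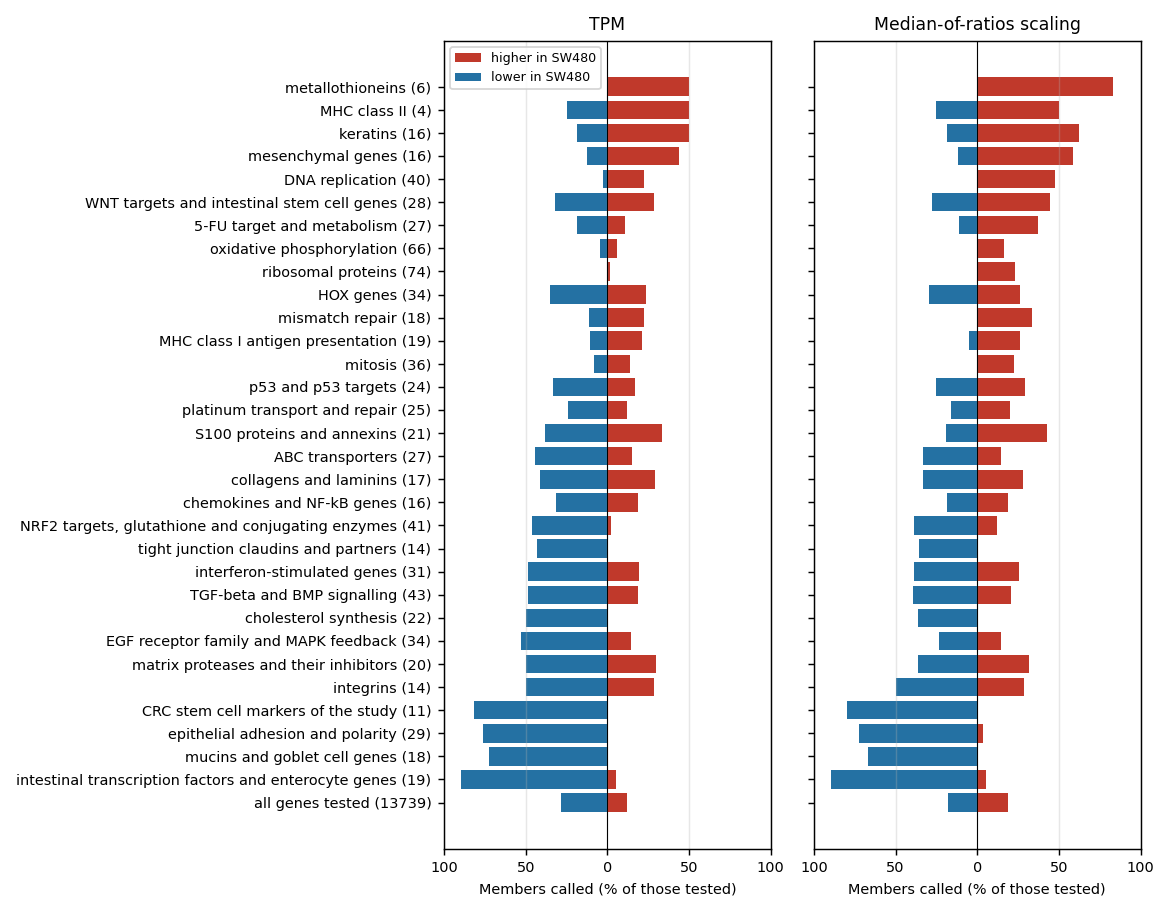
Share of the tested members of each gene list that were higher (red, to the right) or lower (blue, to the left) in SW480 than in DLD-1, with TPM on the left and median-of-ratios scaling on the right, and the number tested with TPM in brackets. Intestinal, mucin, epithelial and stem cell marker lists had most tested members lower under both scalings. Members of these lists near 0 in SW480 entered through DLD-1 alone. With median-of-ratios scaling, higher calls rose over all genes (12.2% to 19.1%) and in many lists, DNA replication, 5-FU and ribosomal proteins among them.

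WNT signalling keeps intestinal stem cells dividing, and mutations of its inhibitor APC activate it in most colorectal tumours. Of 28 WNT targets and intestinal stem cell genes tested, 8 were higher and 9 lower in SW480 (13 and 8 of 29 with median-of-ratios scaling). LGR5 (chr12:71833578-71980090, GRCh37), the R-spondin receptor that marks crypt stem cells, was listed at 0, 0 and 0.0282 TPM in SW480 and had 73.4, 80.4 and 74.3 TPM in DLD-1. Its annotated span overlaps the end of that of TSPAN8, and whether the counting used strand is not given in the sources used here. The members higher in SW480 included feedback inhibitors of the pathway. APCDD1, such an inhibitor at the membrane, had 716, 665 and 713 TPM in SW480 and 13.1, 13.6 and 13.3 TPM in DLD-1. NOTUM, a secreted enzyme that inactivates WNT ligands, and NKD1, which acts on the Dishevelled protein, were higher with log2 fold changes of 4.53 ± 0.11 and 3.92 ± 0.10 (SE). AXIN2, a further feedback inhibitor, had 246 to 314 TPM in SW480 and 210 to 223 TPM in DLD-1 and was not called. MYC, a target of the pathway, had 135, 130 and 140 TPM in SW480 and 209, 217 and 216 TPM in DLD-1, and was not called at a log2 fold change of -0.66.

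The 13 CRC stem cell markers named in the study's methods had 11 members tested, with 9 lower and 0 higher in SW480 (8 and 0 of 10 with median-of-ratios scaling). LGR5, ALCAM and DPP4, near 0 in SW480, entered through DLD-1 alone, which weighs these counts toward lower calls. ALCAM, an adhesion molecule, was at most 0.240 TPM in SW480 and 62.1 to 69.1 TPM in DLD-1. DPP4, a surface peptidase, was at most 0.0583 TPM and 43.99 to 48.7 TPM. CD24, whose reads are uncertain because near-identical pseudogene copies exist, had 8.51, 10.4 and 8.57 TPM in SW480 and 224, 244 and 231 TPM in DLD-1. CD44 was not called, at 64.3 to 83.7 TPM in SW480 and 137 to 146 TPM in DLD-1.

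Transforming growth factor β (TGF-β) and bone morphogenetic protein (BMP) signals pass through receptors to SMAD proteins, with SMAD4 as the common partner, and the ID genes are direct BMP targets. Of 43 such genes tested, 8 were higher and 21 lower in SW480 (9 and 17 with median-of-ratios scaling). The ligand BMP7 was higher, at 96.1, 96.4 and 96.0 TPM in SW480 against 0.260, 0.0886 and 0.0399 TPM in DLD-1. The targets ID1 and ID3 were lower, with ID1 at 3.90, 6.44 and 4.59 TPM against 390, 406 and 398 TPM. ID3 had 2.14, 2.73 and 3.002 TPM against 185, 175 and 192 TPM. Another ID gene, ID2, was among the 8 higher members, at 568, 516 and 574 TPM against 252, 266 and 256 TPM.

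SMAD4 (chr18:48554898-48611415, GRCh37), singled out after its values were seen, had 0.191, 0.152 and 0.305 TPM in SW480 and 17.8, 19.6 and 17.1 TPM in DLD-1 (log2 fold change -3.98 ± 0.11 SE, adjusted p = 9.4e-09). Its neighbour on the same arm, SMAD2, had 6.97, 4.58 and 5.70 TPM in SW480 and 22.5, 23.9 and 22.01 TPM in DLD-1. Both sit on 18q, the chromosome arm with the lowest median in SW480. Of 125 tested genes on 18q, 95 were lower and 2 higher in SW480, and their median log2 fold change relative to that of all genes was -1.16. The 20q arm was at the other end, with 73 higher and 31 lower of 266 genes and a relative median of 0.87. Relative medians were nearly the same after median-of-ratios scaling, at -1.24 and 0.86. Other arms lay between -0.70 (4q) and 0.64 (Xq). In the resistant libraries the line difference relative to all genes was -1.34 (5-FU res) and -1.11 (OX res) for 18q, and 0.73 and 0.84 for 20q. DNA copy number was not measured in these files.

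**Figure D3:**
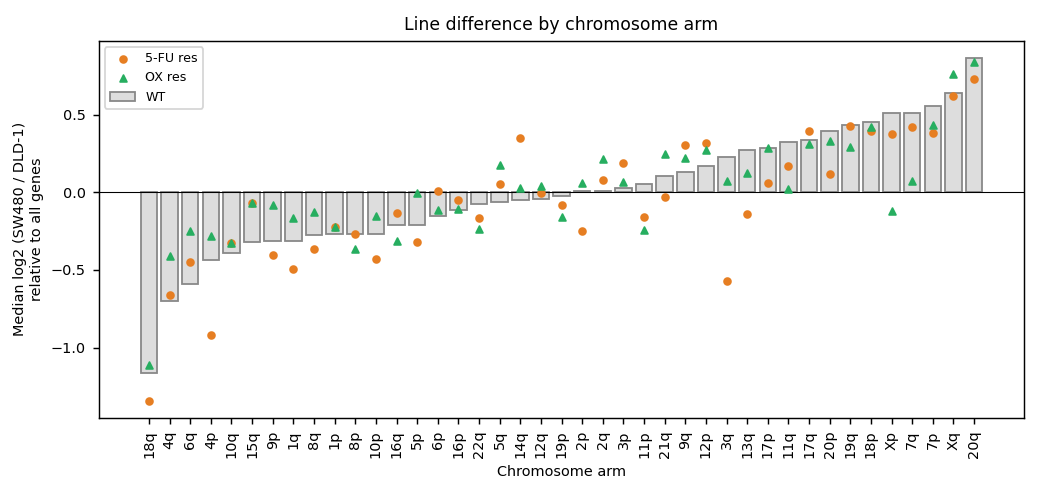
Median log2 fold change, SW480 against DLD-1, of the tested genes of each chromosome arm minus the median of all tested genes, for arms with 20 or more genes (grey bars, WT libraries; orange circles, 5-FU res; green triangles, OX res). The 18q arm was lowest and 20q highest in WT libraries, and both kept their sign in the resistant libraries.

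Epidermal growth factor receptor (EGFR) signalling was represented by 34 tested genes, of which 5 were higher and 18 lower in SW480 (5 and 8 with median-of-ratios scaling). The ligands TGFA, AREG, EREG and BTC were lower in SW480. EREG, which encodes epiregulin, was at 0.0983, 0.219 and 0.107 TPM in SW480 and 107, 116 and 107 TPM in DLD-1. AREG, which encodes amphiregulin, was at most 0.108 TPM against 7.08 to 10.2 TPM, and the ligand BTC was listed at 0 in SW480 against 3.997 to 7.80 TPM. EGFR itself had 13.1, 6.68 and 11.6 TPM in SW480 and 27.6, 29.3 and 26.6 TPM in DLD-1. Its log2 fold change of -1.38 ± 0.21 (SE) was called with TPM, and the value of -0.93 with median-of-ratios scaling was not. SPRY1, a feedback inhibitor of the pathway, was lower (-2.29), while the targets ETV4 and FOSL1 were among the 5 higher members with 2.29 and 2.13.

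The drugs used elsewhere in the series act on thymidylate synthesis (5-FU) and on DNA by platinum adducts (oxaliplatin), and the genes that handle them were compared before any exposure. Of 27 genes of 5-FU target and metabolism tested, 3 were higher and 5 lower in SW480, and this balance turned to 10 higher and 3 lower with median-of-ratios scaling. TYMS, the thymidylate synthase inhibited by 5-FU, had 206, 175 and 193 TPM in SW480 and 179, 179 and 172 TPM in DLD-1 (log2 fold change 0.11 ± 0.06 SE, adjusted p = 0.135). The groups overlapped with TPM. With median-of-ratios scaling the log2 fold change of TYMS was 0.59 (limma, adjusted p = 4.1e-06), higher in SW480 but below the fold threshold, so it was not called. DPYD, the enzyme that degrades 5-FU, was listed at 0 in all 6 libraries. CDA, a cytidine deaminase, was higher at 39.0, 37.3 and 43.6 TPM in SW480 against 3.79, 5.38 and 5.44 TPM in DLD-1. TDG, a glycosylase that removes mispaired thymine and uracil, was lower at 8.44, 5.09 and 7.09 TPM against 59.1, 61.0 and 57.6 TPM. SLC29A2, a nucleoside transporter, was lower with a log2 fold change of -1.58.

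For platinum transport and repair, 3 were higher and 6 lower of 25 tested (5 and 4 with median-of-ratios scaling), which is near the 12.2% and 28.5% (19.1% and 17.6%) over all genes. ERCC1, a subunit of the nuclease that cuts beside platinum adducts, was higher, at 102, 98.8 and 98.9 TPM in SW480 against 43.5, 36.0 and 40.9 TPM in DLD-1 (log2 fold change 1.30 ± 0.08 SE, adjusted p = 7.8e-07). REV3L, the catalytic subunit of a translesion polymerase, had 3.31, 1.62 and 2.45 TPM against 16.7, 18.4 and 16.1 TPM. The copper transporter ATP7A was lower at -2.201, ERCC6 at -1.99 and FANCD2 at -1.60. Metallothioneins, which bind metal ions including platinum, had 3 higher and 0 lower of 6 tested (5 and 0 with median-of-ratios scaling), though their sequences are close and single members are uncertain. MT2A had 2107, 2671 and 2502 TPM in SW480 and 449, 464 and 455 TPM in DLD-1, and MT1A had 70.7, 84.4 and 94.5 TPM and was listed at 0 in DLD-1.

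Of 18 mismatch repair genes tested, 4 were higher and 2 lower in SW480 (6 and 0 with median-of-ratios scaling), and 4 were lower without SW480 library 1 and 1 without library 2. MSH6, a mismatch recognition protein, measured 79.5, 62.9 and 74.0 TPM in SW480 and 15.01, 16.4 and 14.3 TPM in DLD-1 (log2 fold change 2.16 ± 0.10 SE, adjusted p = 1.9e-07). All DLD-1 values were below all SW480 values, and any link to the repair defect known for DLD-1 was not tested. MSH3 was lower (-1.17) with TPM but was not called with median-of-ratios scaling, and the clamp loader genes RFC2 and RFC4 were higher at 1.62 and 1.25.

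**Figure D4:**
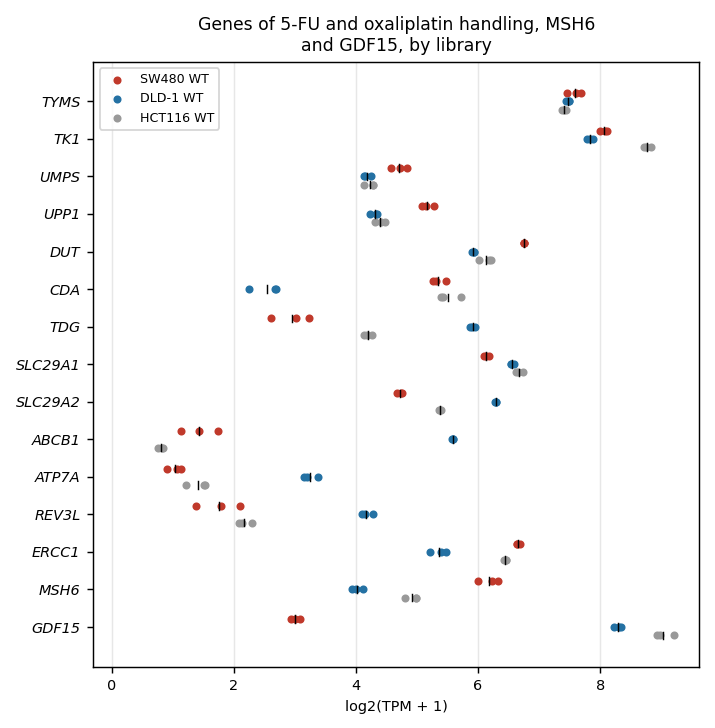
Level of 15 genes, those of 5-FU and oxaliplatin handling with MSH6 and GDF15, as log2(TPM + 1) on the x axis, 1 point per WT library and a black tick at the mean of 3 (SW480 red, DLD-1 blue, HCT116 grey). TYMS values overlapped between SW480 and DLD-1, ABCB1, TDG and GDF15 were higher in DLD-1, and MSH6, ERCC1 and CDA were higher in SW480.

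ABC transporters, which export drugs and lipids, had 4 higher and 12 lower of 27 tested (4 and 9 with median-of-ratios scaling). Their median log2 fold change relative to all genes was -0.20, and lower calls also outnumbered higher ones over all genes (28.5% against 12.2%). ABCB1, the P-glycoprotein pump, measured 2.34, 1.20 and 1.70 TPM in SW480 and 47.1, 47.5 and 46.9 TPM in DLD-1 (log2 fold change -4.15 ± 0.15 SE, adjusted p = 4.4e-08). ABCA7 and ABCA12, lipid transporters, were lower with -2.27 and -2.12, and ABCB6, a porphyrin transporter, was higher with 2.61. Among 41 NRF2 targets and conjugating enzymes tested, 19 were lower and 1 was higher (16 and 5 with median-of-ratios scaling). GSTM3, a glutathione transferase, had at most 0.0560 TPM in SW480 and 49.95 to 54.7 TPM in DLD-1. ALDH3A1, an aldehyde dehydrogenase, had 10.2 to 13.2 TPM against 209 to 215 TPM, and SLC7A11, the cystine transporter, 0.516 to 0.636 TPM against 19.7 to 22.5 TPM. AKR1C3, whose family members are nearly identical, was at most 0.628 TPM against 21.1 to 21.4 TPM.

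GDF15 (chr19:18485541-18499986, GRCh37), the stress-induced cytokine on which the study centred, was at 6.98, 7.44 and 6.69 TPM in SW480 and 324, 318 and 297 TPM in DLD-1 (log2 fold change -5.29 ± 0.07 SE, adjusted p = 5.5e-10). HCT116 WT had 588, 502 and 485 TPM, so SW480 was the line with the lowest untreated level, and the DLD-1 and HCT116 values did not overlap. GDF15 is also a p53 target. Of 24 genes of the p53 list, 4 were higher and 8 lower in SW480 (7 and 6 with median-of-ratios scaling), with a median of -0.06 relative to all genes. PHLDA3, a p53-induced inhibitor of AKT, was higher at 91.6, 102 and 99.4 TPM against 0.685, 0.938 and 0.317 TPM. BBC3, which encodes the cell death protein PUMA, and SESN2, a stress sensor, were lower with -2.34 and -2.02. CDKN1A, the cell cycle inhibitor p21, was among the higher members at 72.7 to 77.7 TPM in SW480 and 25.4 to 27.3 TPM in DLD-1.

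Immune genes were divided. For MHC class I antigen presentation, 4 were higher and 2 lower of 19 (5 and 1 with median-of-ratios scaling). B2M, the light chain of class I molecules, had 879, 832 and 885 TPM in SW480 and 237, 230 and 215 TPM in DLD-1 (log2 fold change 1.92 ± 0.05 SE). The proteasome subunit PSMB9 and the factor IRF1 were higher with 1.46 and 1.48, and the trimming peptidase ERAP2 was lower, at 1.56 to 2.42 TPM against 40.1 to 41.4 TPM. Of 4 MHC class II genes tested, 2 were higher and 1 lower under both scalings. CD74, the invariant chain, was at 48.4, 54.0 and 52.1 TPM in SW480 and 0.217, 0 and 0 TPM in DLD-1. HLA-DQB1 had 5.64 to 7.93 TPM and was listed at 0 in DLD-1, and HLA-DMB was lower (-2.49), with the reads of HLA genes uncertain because of their variation and similarity.

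Interferon-stimulated genes had 6 higher and 15 lower of 31 tested (8 and 12 with median-of-ratios scaling). IFI27 was at 70.0, 82.1 and 75.7 TPM in SW480 and 1.83, 2.02 and 0.918 TPM in DLD-1, and OAS2 and IFITM1 were also higher (3.83 and 3.62). USP18, an inhibitor of interferon signalling, was lower at 1.66 to 2.67 TPM against 26.7 to 29.9 TPM. Of 16 chemokine and NF-κB genes, 3 were higher and 5 lower (3 and 3 with median-of-ratios scaling). The neutrophil chemokine CXCL5 had at most 0.0944 TPM in SW480 and 94.98 to 98.7 TPM in DLD-1. IL18, an inflammasome cytokine, had at most 0.113 TPM against 60.5 to 64.5 TPM, while TNFAIP2 was higher with 13.9 to 16.6 TPM against 0.342 to 0.423 TPM.

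For proliferation genes, the counts depended on the scaling. DNA replication genes had 9 higher and 1 lower of 40 tested with TPM and 19 higher and 0 lower with median-of-ratios scaling. E2F1, a regulator of S phase entry, had 98.3, 107 and 103 TPM in SW480 and 36.1, 38.9 and 41.5 TPM in DLD-1. POLA2, a primase-associated subunit, was higher at 1.33, and CCNE1 was lower at -1.27 with TPM but not called with median-of-ratios scaling. Mitotic genes had 5 higher and 3 lower of 36 (8 and 0 with median-of-ratios scaling), with 5 lower when SW480 library 1 was left out and 1 when library 2 was. AURKB, a mitotic kinase, and PTTG1, securin, were higher with 1.56 and 1.23, and CENPF and ECT2, lower with -1.32 and -1.13 by TPM, were not called with median-of-ratios scaling.

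Of 74 ribosomal protein genes tested, 1 was higher and 0 lower with TPM, against 17 and 0 with median-of-ratios scaling. The 1 gene, RPL21, which has many near-identical pseudogene copies, ranged from 205 to 478 TPM in SW480 and from 39.6 to 219 TPM in DLD-1, so that the groups overlapped. Its call was lost without SW480 library 3, and 2 ribosomal protein genes were called without library 1. Oxidative phosphorylation genes had 4 higher and 3 lower of 66 (11 and 0 with median-of-ratios scaling). NDUFC2 and ATP5J2 were higher with 1.47 and 1.31, while ATP5A1 and COX7C were lower with -1.37 and -1.23 by TPM and were not called with median-of-ratios scaling. Cholesterol synthesis genes were lower or not called, with 11 lower and 0 higher of 22 (8 and 0 with median-of-ratios scaling). HMGCS1, an early enzyme of the pathway, had 7.19, 4.59 and 6.12 TPM in SW480 and 124, 126 and 120 TPM in DLD-1. INSIG1, SREBF2 and FDFT1, which are regulators and an enzyme of this pathway, were lower with -2.90, -2.76 and -2.51.

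HOX genes, which record position along the body axis, had 8 higher and 12 lower of 34 tested (9 and 10 with median-of-ratios scaling). HOXA13, a hindgut gene, had 1.54, 0.833 and 1.68 TPM in SW480 and 65.9, 72.3 and 69.7 TPM in DLD-1, and HOXA6 was lower too at -3.58. HOXC10 and HOXB2 were higher, with 21.4 to 26.3 TPM against 1.62 to 1.81 TPM for HOXC10 and a log2 fold change of 2.68 for HOXB2. Of 48 cancer-testis antigens listed, 45 were in the files and 0 reached the filter of 1 TPM in 3 libraries. PASD1, a cancer-testis antigen outside this list that was picked after its values were seen, had 57.4, 51.6 and 57.9 TPM in SW480 and at most 0.279 TPM in DLD-1.

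The resistant libraries gave a further look at the same lines, with other libraries that have the same split of name ranges between the lines. Of the 1683 genes higher in untreated SW480, 80.1% were also called higher in 5-FU res cells, where 18.1% of all tested genes were, and 72.3% in OX res cells, where 11.9% were. Calls in either direction made up 34.6% of tested genes in the former cells and 29.1% in the latter. Of the 3913 lower genes, 46.2% were called lower in 5-FU res cells (background 16.5%) and 49.1% in OX res cells (background 17.2%). The same sign was found for 96.6% and 96.5% of the higher genes and for 89.7% and 95.1% of the lower genes, and the median log2 fold change over all genes was -0.01 in 5-FU res cells and -0.22 in OX res cells, compared with -0.42 in untreated cells. Opposite calls were found for 8 and 9 of the higher and 32 and 17 of the lower genes. All 23 leading genes had the same sign in both kinds of resistant cells, with log2 fold changes of at least 4.19 (5-FU res) and 4.45 (OX res) in size. CDH1 was at -6.50 and -6.46 there, VIM at 8.88 and 8.86, MSH6 at 3.05 and 2.07, and GDF15 at -3.44 and -4.32. ABCB1, in contrast, was at -1.58 in 5-FU res cells and -0.34 in OX res cells, compared with -4.15 in untreated cells.

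**Figure D5:**
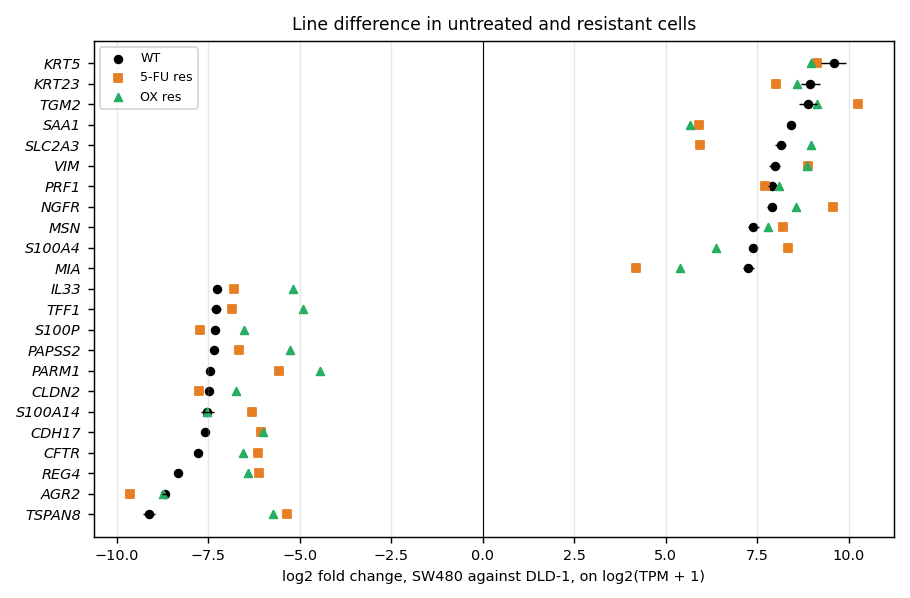
The log2 fold change, SW480 against DLD-1, on the log2(TPM + 1) scale for the 23 leading genes in WT (black circles with SE bars), 5-FU res (orange squares) and OX res (green triangles) libraries. All points of a gene lie on the same side of 0. TSPAN8, SAA1, MIA, PARM1, REG4, CFTR and CDH17 are among the genes that lie closer to 0 in both kinds of resistant cells.

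HCT116, the line with untreated libraries from the number range of SW480, was nearer to SW480 in mean log2(TPM + 1) for 70.9% of the 3913 genes lower in SW480 and for 41.5% of the 1683 higher genes. These shares were taken with TPM alone, and the share over all tested genes was not taken. The FPKM of HCT116 WT libraries summed to 701434 to 720744, nearer to the sums of SW480 than to those of DLD-1. What part the scaling has in these shares was not tested. HCT116 had CDH1 at 27.3 to 30.1 TPM, close to SW480, but RAB25 at 154 to 159 TPM and S100A14 at 329 to 355 TPM, close to DLD-1. VIM in HCT116 was at 3.77 to 4.65 TPM, far below SW480, and MSN at 118 to 126 TPM was between the lines. MSH6 (27.1 to 30.6 TPM) also lay between them, and ABCB1 (0.688 to 0.803 TPM) was below both.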

How the data were processed

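Total RNA of SW480, DLD-1 and HCT116 cells was made into stranded mRNA libraries and read as 100-base single reads. By the study's methods and the submitters' processing notes, the authors used Trimmomatic 0.38 to trim adaptors and TopHat2 2.1.1 (Bowtie2 2.2.8, SAMtools 0.1.18) for alignment to hg19, and computed the deposited FPKM of 26255 gene symbols with Cufflinks or Cuffdiff 2.2.1. The methods describe HCT116 and SW480, and DLD-1 is described in the labels alone. Read numbers: not given in the sources used here.

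FPKM were divided by their library sum (TPM). limma 3.58.1 (lmFit, eBayes with trend, R 4.3.3) was fitted to log2(TPM + 1) of the 6 libraries for genes with 1 TPM or more in at least 3, with two-sided tests, Benjamini-Hochberg adjustment over all genes, and a call at adjusted p under 0.05 with a log2 fold change over 1 in size. The study's rank test cannot pass with 3 against 3 libraries (smallest exact p 0.1). The resistant libraries and interactions were fitted over the 18 libraries of both lines. Steps were tested on simulated data. Positions and transcript lengths came from GENCODE v44 lifted to GRCh37 (22422 symbols matched directly, 1358 by an older symbol, 2475 not). Python 3.11.15, numpy 2.4.6, pandas 2.3.3 and matplotlib 3.10.9 were used.

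Genes were named as the 12 largest per direction among called genes with no overlap (small RNA, LOC and Y-linked genes left out), up to 4 called members of each of 32 lists with the largest fold, and a few fixed genes. Some of these genes are not reported here. Further members were named after their values were seen. The comparison and lists were chosen with earlier results of these data known. Alternatives were other scalings, pseudocount, filters, variance model, samples, the replicate number as a block, removal of the length trend and each library left out.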

Additional observations from a re-analysis of the deposited data

Results flagged for a closer look

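The difference between SW480 and DLD-1 was larger or smaller in resistant than in untreated cells for 15 of the 23 leading genes, by limma interaction terms over 18 libraries with an adjusted p under 0.05 and a size of 1 or more, and these 22 values were picked out for that reason. The share of all tested genes that pass this rule is not given here, so 15 of 23 has no background. The 23 genes were chosen for large differences in the same untreated libraries that enter these terms. Values are the line difference in resistant cells minus that in untreated cells on the log2(TPM + 1) scale. The median line difference over all genes was -0.42 untreated, -0.01 with 5-FU resistance and -0.22 with oxaliplatin resistance. This shift was not subtracted, and its part in values of a size near 1 was not tested. Among genes higher in SW480, SAA1 had -2.51 (5-FU res) and -2.76 (OX res), with the untreated DLD-1 libraries listed at 0. MIA had -3.06 and -1.85, in the same order. SLC2A3 had -2.20, TGM2 1.36 and NGFR 1.67 in 5-FU res cells, and S100A4 had -1.0 in OX res cells. Among genes lower in SW480, positive values mark a smaller difference. TSPAN8 had 3.78 and 3.38, REG4 2.21 and 1.90, CFTR 1.64 and 1.24, CDH17 1.53 and 1.60, and PARM1 1.88 and 2.998. S100A14 had 1.21 in 5-FU res cells, and PAPSS2 had 2.07, TFF1 2.37 and IL33 2.08 in OX res cells.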

How the results depend on the processing

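The number of genes higher in SW480 (1683) was 2615 with median-of-ratios scaling, 2453 with FPKM as deposited, 2317 with quantile normalization and 2233 with the length trend removed. It was 1022 when only genes of mean TPM 5 and above were tested. The share of calls that were higher was 48.9% to 54.8% in the former settings, against 30.1% with TPM. The number lower (3913) was 2420 with median-of-ratios scaling, 2022 with FPKM as deposited, 2425 with quantile normalization and 1969 with the length trend removed. Leaving out each library in turn gave 1667 to 1710 higher and 3621 to 4197 lower. With the replicate number as a block, 1686 were higher and 3916 lower. Same-numbered libraries did not deviate together (correlations -0.03, 0.00 and -0.01). With so few libraries of different lines, this cannot tell whether those of the same number were handled together. Calls of MSH3, CENPF, ECT2, CCNE1, EGFR, EPCAM, ATP5A1 and COX7C were lost with median-of-ratios scaling and with FPKM as deposited. With the length trend removed, ERCC6 and FANCD2 lost the call, and MSH3, CENPF, ECT2, EGFR and ATP5A1 did so too. Without SW480 library 2, ECT2 was not called. The causes of the lost calls were not tested. Leaving out small RNA genes, an alternative chosen after seeing the data, gave 1670 and 4043. In the resistant libraries, 4237 to 5355 genes were called in 5-FU res cells (4752 as reported) and 3314 to 4520 in OX res cells (3998 as reported) over the other scalings, pseudocount and filter.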

Other observations

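Several genes best known from lymphocytes were on in SW480 and off in DLD-1, and were chosen here after their values were seen. ZAP70, a T cell receptor kinase, had 109, 123 and 118 TPM in SW480 and at most 0.361 TPM in DLD-1. CD8B, a T cell co-receptor chain, had 57.5 to 59.4 TPM against at most 0.113 TPM. GZMB, the cytotoxic protease granzyme B, had 20.7 to 22.3 TPM and was listed at 0 in all DLD-1 and HCT116 WT libraries. IL10, an anti-inflammatory cytokine, had 23.2 to 26.0 TPM against at most 0.0979 TPM, and the chemokine receptor CXCR4 had 106 to 119 TPM against at most 0.475 TPM. Of the 10 leukocyte markers, 5 were listed at 0 in all SW480 libraries, PTPRC, CD3D and CD2 among them, while CD14 (0.877 to 1.38 TPM) and LYZ (1.29 to 1.68 TPM) reached 1 TPM and CD3E had 0.0812 to 0.644 TPM. Their summed level was 2.96 to 3.50 TPM in SW480 and 3.51 to 4.68 TPM in DLD-1, and the part of such cells in these values was not tested.

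Of genes on in DLD-1, also chosen after their values were seen, ST6GALNAC1, a sialyltransferase of mucin-type sugar chains, was at 41.4, 44.8 and 42.4 TPM and was listed at 0 in SW480. GALNT3, which starts such chains, had 25.3 to 28.3 TPM in DLD-1 against at most 0.115 TPM. The receptor KIT and its ligand KITLG were both on in DLD-1, at 18.1 to 18.3 TPM for KIT and 26.2 to 26.6 TPM for KITLG, against at most 0.0477 and 0.407 TPM in SW480. NOX1, the colon NADPH oxidase, had 76.8 to 77.3 TPM in DLD-1 and at most 0.0538 TPM in SW480.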
